A study of Mus musculus with 4 samples.

Results

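Smooth muscle cells are the contractile cells of the walls of lung arteries, veins and airways. Here they were 156 of the 44835 cells kept from dissociated mouse lungs profiled by droplet single-cell RNA sequencing. The Vegfr2Y949F mice carry a tyrosine-to-phenylalanine substitution in the VEGF receptor VEGFR2, whose gene is Kdr, and the controls were WT mice. All animals were C57BL/6J mice, 6 to 8 weeks old, and all spent 6 weeks in hypoxia, so no normoxic sample is part of the comparison. There were 2 Vegfr2Y949F and 2 WT libraries, named A and B, and the lungs of 2 mice were pooled in each cell suspension. In the values below, pairs are pool A and then pool B.

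The cells were chosen by their own transcripts. A cell needed 3 or more unique molecular identifiers (UMIs, counted RNA molecules) of Acta2 and UMIs of at least 2 of the 4 genes Myh11, Cnn1, Actg2 and Des. It had to show fewer than 3 of the pericyte genes Cox4i2, Higd1b, Trpc6 and Postn, fewer than 3 of the 6 alveolar fibroblast genes Tcf21, Npnt, Itga8, Col13a1, Slc7a10 and Scube2, at most 1 UMI of the endothelial genes Cdh5 and Cldn5 together, and no UMI of the leukocyte gene Ptprc or the epithelial gene Epcam. The levels of these genes in the chosen cells follow from the choice and are given as a description. Of 410 cells that met the contractile part, 196 held 3 or more pericyte genes, 80 held 3 or more alveolar fibroblast genes, 81 held 2 or more Cdh5 and Cldn5 UMIs, 22 held Ptprc and 8 held Epcam. At the edge of the rule, the 20 members with 3 or 4 Acta2 UMIs had a median of 15 Tagln UMIs, and the 25 cells just outside with 1 or 2 Acta2 UMIs had 9. The 43 members with just 2 of the 4 contractile genes had a median of 21 Tagln UMIs, and the 23 cells with only 1 had 9.

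The Vegfr2Y949F libraries gave 35 and 35 smooth muscle cells, and the WT libraries gave 31 and 55. Their share of kept cells was 0.281% (95% Wilson interval 0.202 to 0.391%) and 0.346% (0.249 to 0.481%) in the Vegfr2Y949F pools. In the WT pools it was 0.264% (0.186 to 0.375%) and 0.521% (0.400 to 0.677%). The share averaged 0.314 ± 0.0458% in Vegfr2Y949F pools and 0.393 ± 0.181% in WT pools (SD, n = 2 each), and the genotypes overlapped. The exact permutation test, two-sided, gave p = 1, where 2 pools against 2 cannot go below 0.333. The summed smooth muscle depth was 209112 and 245120 UMIs in Vegfr2Y949F and 184260 and 383545 UMIs in WT. The median per cell was 4724 and 6081 UMIs in Vegfr2Y949F and 5738 and 6429 UMIs in WT. Between 43 and 70 cell barcodes were shared by each pair of libraries, and 0 of them belonged to smooth muscle cells in both libraries of the pair. WT B stood apart among the 4 libraries by its number of smooth muscle cells and, as described below, by the make-up of those cells.

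Smooth muscle contracts when calcium activates myosin light chain kinase, and the phosphorylated myosin (Myh11 heavy chain with Myl9 and Myl6 light chains) pulls on filaments of alpha-smooth muscle actin (Acta2). Serum response factor (SRF) and its partner myocardin (Myocd) switch on many of these genes through a short element called the CArG box. In the pulmonary arteries of hypoxic animals, muscle of the vessel wall is known to thicken and to deposit collagen and elastin. VEGFR2 itself is known chiefly as a receptor of the endothelium.

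The label was checked against genes that the rule did not use. Tagln, an actin-binding protein of smooth muscle, stood at 8747 and 10236 CPM (counts per 1000000 of all UMIs summed over the cells) in Vegfr2Y949F and 10333 and 9477 CPM in WT. Averaged over the 4 libraries it was 9698 CPM in smooth muscle, against 852 CPM in 747 pericytes, 397 CPM in 3693 alveolar fibroblasts and 15.4 CPM in 25307 endothelial cells. Pericytes were chosen by 3 or more of the rule's 4 pericyte genes and alveolar fibroblasts by 3 or more of its 6. Endothelial cells were chosen by 3 or more Cdh5 and Cldn5 UMIs. The gates of pericytes and alveolar fibroblasts set no limit on contractile genes. The pericytes can thus include contractile cells that the rule's pericyte limit left out. Acta2, a gene of the rule, was at 7307 and 9106 CPM in Vegfr2Y949F and 8439 and 6502 CPM in WT. The 6 endothelial markers summed to 71.7 and 61.2 CPM in Vegfr2Y949F smooth muscle and 65.1 and 41.7 CPM in WT smooth muscle, where endothelial cells had 7412 to 8229 CPM. Cdh5 and Cldn5, which the rule limits, are among the 6, so the low sum is in part set by the choice. The 6 adventitial fibroblast markers summed to 521 and 1130 CPM in Vegfr2Y949F smooth muscle and 586 and 1723 CPM in WT smooth muscle. Of these, Col14a1, Dpt and Dcn had a UMI in 68, 64 and 48 of the 156 cells. Clec3b, Pi16 and Serpinf1 had a UMI in 4, 2 and 2 cells. The pericyte markers Pdgfrb, Abcc9 and Kcnj8, which the rule did not use, had a UMI in 76, 70 and 44 cells. Kdr, the mutated gene, had a UMI in 5 of 156 smooth muscle cells (3.21%) and in 60.8% of endothelial cells. Its level was 14.3 and 0 CPM in Vegfr2Y949F smooth muscle and 5.43 and 2.61 CPM in WT smooth muscle. The club cell transcript Scgb1a1, which neither type should make, had a UMI in 94.2% of smooth muscle cells (median 5852 UMIs a cell) and in 89.7% of endothelial cells (median 4404 to 5633 UMIs by library), which is background at this depth. A count of 0 in 156 cells allows a share of up to 1.92% of cells with a UMI, which sets no limit on cells expressing the gene.

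Apart from the genes of the rule, 1130 genes reached 100 CPM in smooth muscle of every library, and 21 of these were over 10 times as high as in the highest of the other 3 cell types. Actc1, cardiac alpha-actin, led this order. It stood at 717 and 824 CPM in Vegfr2Y949F smooth muscle and 570 and 480 CPM in WT smooth muscle, with a mean of 648 CPM in smooth muscle and 3.26 CPM in alveolar fibroblasts, the next highest type. The heart muscle genes Myh6, Myl7, Tnni3 and Nppa had 0 UMIs in the same cells. Tnnt2, a further heart muscle gene of that list, had a UMI in 14 of them (8.97%) and in 0.743% of endothelial cells. Tcap, a cap protein of the striated muscle sarcomere, followed with 354 and 151 CPM in Vegfr2Y949F and 396 and 216 CPM in WT. Further down the order came the PDZ and LIM domain protein Pdlim3 (a mean of 177 CPM), the insulin-like growth factor binding protein Igfbp5 (1307 CPM), the hedgehog-binding protein Hhip (1778 CPM), Myocd (136 CPM) and the M-band protein Myom1 (193 CPM). Myocd was at 167 and 159 CPM in Vegfr2Y949F and 114 and 101.7 CPM in WT, against 5.25 CPM in pericytes, the next highest type. These ratios describe cells that were chosen by related genes and carry no test.

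**Figure D1:**
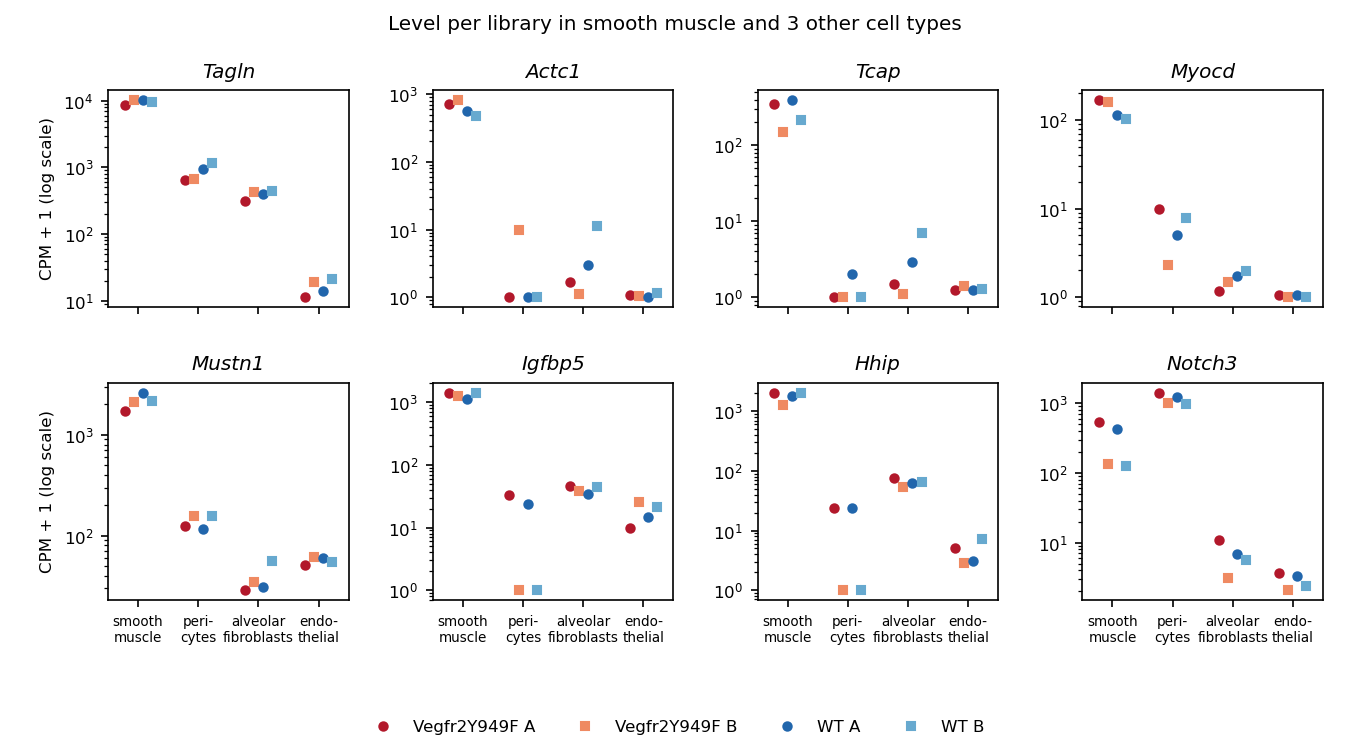
Level of 8 genes in each library (CPM + 1, log scale) in smooth muscle, pericytes, alveolar fibroblasts and endothelial cells, with each point the summed cells of 1 library. Tagln, Actc1, Tcap, Myocd, Mustn1, Igfbp5 and Hhip are highest in smooth muscle in all 4 libraries, whereas Notch3 is highest in pericytes.

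The CArG box was looked for in the promoters of the contractile genes. It was searched on both strands, from 250 bases before to 50 after the annotated start, as CC, 6 bases that are A or T, and GG. It was present in 4 of 32 matched genes of a contractile apparatus list (12.5%) and in 1.81% of 27025 mouse genes. With 1 other base allowed among the 6, the shares were 8 of 32 (25%) and 11.3%. Among the 25 genes highest in smooth muscle, 17 had a promoter in the table and 2 of those (11.8%) held the full box. The promoters below are from RefSeq, build GRCm38.p6, written 5′ to 3′ on the strand of the gene, and are shown because their genes encode the actins and myosin light chains of these cells. Capitals mark the boxes, full or with 1 other base. Acta2 lies at chr19:34255324-34255623 (minus strand) and holds boxes that start 84 and 34 bases before the start site. Actc1 lies at chr2:114052826-114053125 (minus strand) with boxes 175, 138, 87 and 47 bases before it. Myl9 lies at chr2:156775214-156775513 (plus strand) with boxes 161 and 99 bases before it, and Myl6 at chr10:128492960-128493259 (minus strand) with 1 box 50 bases before it. The full boxes are those 47 bases before the start in Actc1, 161 in Myl9 and 50 in Myl6. Acta2 holds 0 full boxes. A match describes letters in the window and not binding.
Acta2: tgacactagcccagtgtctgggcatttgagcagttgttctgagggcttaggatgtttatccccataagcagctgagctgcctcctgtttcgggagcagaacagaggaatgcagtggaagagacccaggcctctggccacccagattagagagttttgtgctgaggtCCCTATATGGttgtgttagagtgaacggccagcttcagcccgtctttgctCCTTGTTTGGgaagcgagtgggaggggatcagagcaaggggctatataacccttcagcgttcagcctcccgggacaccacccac
Actc1: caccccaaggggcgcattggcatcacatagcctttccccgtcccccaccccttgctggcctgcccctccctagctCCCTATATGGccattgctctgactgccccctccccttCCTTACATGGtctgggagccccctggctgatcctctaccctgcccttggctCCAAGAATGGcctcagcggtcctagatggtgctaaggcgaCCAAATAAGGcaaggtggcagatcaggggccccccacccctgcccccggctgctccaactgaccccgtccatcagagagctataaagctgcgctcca
Myl9: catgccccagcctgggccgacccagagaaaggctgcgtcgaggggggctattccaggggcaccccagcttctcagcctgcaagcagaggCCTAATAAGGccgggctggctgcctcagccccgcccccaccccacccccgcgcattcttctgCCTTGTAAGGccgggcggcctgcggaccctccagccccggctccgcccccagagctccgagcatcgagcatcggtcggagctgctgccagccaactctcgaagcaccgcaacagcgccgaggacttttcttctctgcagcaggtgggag
Myl6: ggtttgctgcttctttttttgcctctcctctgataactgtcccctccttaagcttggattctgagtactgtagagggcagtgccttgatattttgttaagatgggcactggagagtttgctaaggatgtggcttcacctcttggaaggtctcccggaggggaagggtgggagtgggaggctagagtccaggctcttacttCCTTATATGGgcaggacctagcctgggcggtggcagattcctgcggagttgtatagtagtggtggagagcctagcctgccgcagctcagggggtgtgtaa

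The 156 cells fell into separate kinds along a pair of genes that no cell held together. Notch3, a Notch receptor of vascular mural cells, had UMIs in 64 cells, and Hhip, which marks airway smooth muscle and related myofibroblasts, had UMIs in 75. The number of cells with both was 0, and 17 cells had neither. The Notch3 cells numbered 22 and 11 in Vegfr2Y949F and 17 and 14 in WT. The Hhip cells numbered 11 and 17 in Vegfr2Y949F and 12 and 35 in WT. The Hhip cells were 31.4 and 48.6% of smooth muscle in Vegfr2Y949F and 38.7 and 63.6% in WT, and with each cell thinned to 1000 UMIs they were 27.7 and 44.5% in Vegfr2Y949F and 31.8 and 55.6% in WT. Both B pools lay above both A pools, whatever the genotype. By lists of markers, 69 cells had at least 2 of 8 vascular mural markers, 37 had at least 2 of 5 airway markers, 1 had both and 49 had neither. Of the airway markers besides Hhip, Lgr6 had a UMI in 50 cells, the BMP antagonist Nog in 3, and the muscarinic receptors Chrm2 and Chrm3 in 12 and 1. The myofibroblast markers Mustn1, Aspn and Tgfbi had UMIs in 151, 130 and 63 cells, and Pdgfra in 10. Mustn1 and Aspn were not particular to Hhip cells, since 95.3 and 73.4% of Notch3 cells also held them. The Hhip cells are called by that gene here and by no cell type name.

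The rule shaped this make-up. Without its limits on pericyte and fibroblast genes, 315 cells qualified, of which 211 had Notch3 UMIs alone and 79 had Hhip UMIs alone. Both genes were present in 2 of the 315. The pericyte limit removed 141 cells, and 136 of these had Notch3 alone and 0 had Hhip alone. The shares of Notch3 and Hhip cells above are thus shares of the chosen cells and not of lung smooth muscle.

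Clustering of the 156 cells without the genes of the rule gave 4 clusters. Cluster 1 (61 cells) was led by Actc1, the collagen Col18a1, Pcp4l1, the cadherin Cdh6 and Notch3, and is called vascular mural-like. Of the vascular mural markers, Notch3, Mcam, Map3k7cl and Heyl had UMIs in 88.5, 85.2, 60.7 and 57.4% of its cells. Gja4, Rgs5, Rgs4 and Olfr558 had them in 19.7, 13.1, 13.1 and 8.20%. The rule's pericyte genes Postn, Cox4i2, Higd1b and Trpc6 had them in 77.0, 50.8, 11.5 and 6.56%, and the airway marker Lgr6 in 32.8%. Cluster 2 (40 cells) was led by the chemokines Ccl2 and Ccl7, the hyaluronan synthase Has1, the ornithine decarboxylase Odc1, Il6 and Nfkb1. Cluster 3 (40 cells) was led by the growth factor Igf1, Adgrg2, Adcy7, the hedgehog receptor Ptch1, Tgfbi and Wnt5a, and cluster 4 (15 cells) by Chrdl1, Cyp1b1 and Htra3. Clusters 2, 3 and 4 were left unnamed. Of the cells in cluster 1, 54 were Notch3 cells and 1 was a Hhip cell. Clusters 2 and 3 held 36 and 38 Hhip cells and 1 Notch3 cell each. Cluster 2 held 2 and 10 cells in Vegfr2Y949F and 5 and 23 cells in WT, so 23 of its 40 cells came from WT B.

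**Figure D2:**
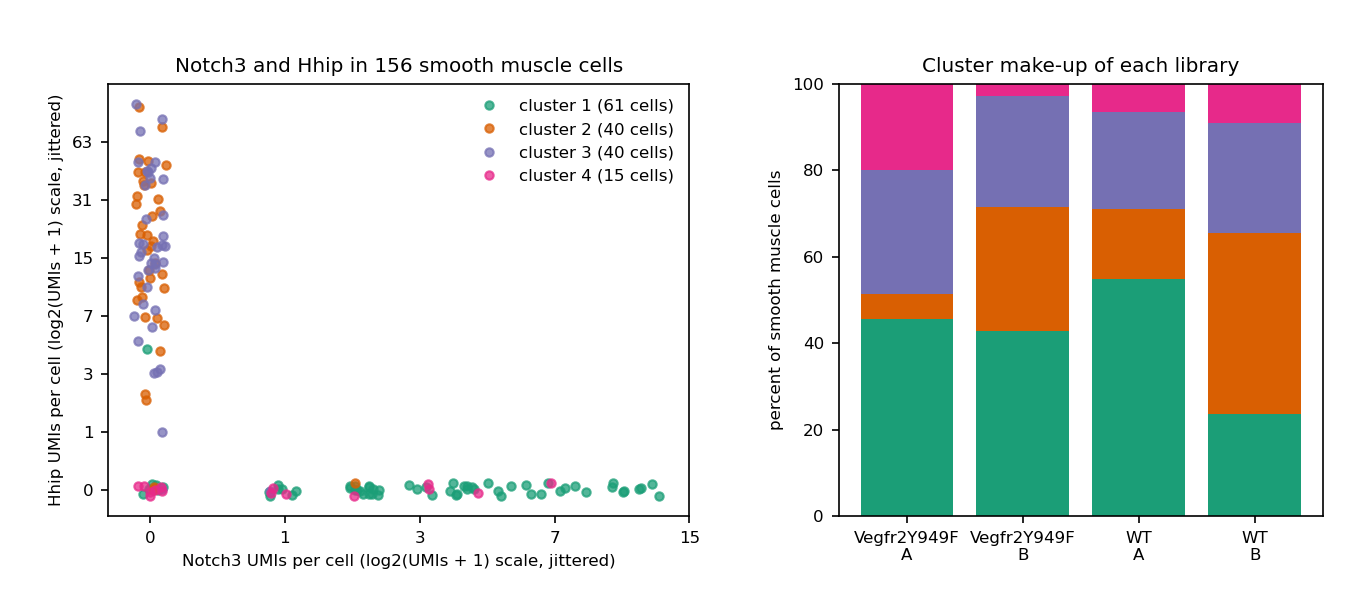
Left, Notch3 and Hhip UMIs in each of the 156 smooth muscle cells (log2(UMIs + 1) scale, jittered), coloured by cluster. Right, percent of each library's smooth muscle cells in each cluster. No cell lies off both axes, and cluster 2 ranges from 5.71% of the cells of Vegfr2Y949F A to 41.8% of those of WT B.

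The Notch3 and Hhip cells differed in level across much of the contractile and matrix programme. Because Notch3 and Hhip chose the sides, these levels are a description over 4 libraries (mean ± SD, n = 4), with no test. Of 2005 genes at 100 CPM or more on either side, 377 were higher in Notch3 cells than in Hhip cells with no overlap among the libraries, and 297 were higher in Hhip cells. Of 37 listed contractile genes, 29 were higher in Notch3 cells, 0 were higher in Hhip cells and 8 overlapped. The light chain Myl9 was at 4545 ± 949 CPM in Notch3 cells and 967 ± 85.3 CPM in Hhip cells. The tropomyosin Tpm2 was at 5202 ± 1672 CPM in Notch3 cells and 1231 ± 497 CPM in Hhip cells. Ppp1r14a, the myosin phosphatase inhibitor CPI-17, was at 1363 ± 248 CPM in Notch3 cells and 97.9 ± 49.9 CPM in Hhip cells. Actc1 was at 1239 ± 276 CPM in Notch3 cells and 47.3 ± 41.5 CPM in Hhip cells. Myocd overlapped, at 153 ± 24.5 CPM in Notch3 cells and 115 ± 41.8 CPM in Hhip cells.

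Matrix genes ran the other way. Of 31 listed fibrillar collagen and matrix genes, 4 were higher in Notch3 cells and 19 in Hhip cells. Thrombospondin 1 (Thbs1) was at 1953 ± 611 CPM in Notch3 cells and 13810 ± 443 CPM in Hhip cells. The small proteoglycans decorin (Dcn) and asporin (Aspn) were at 7.85 ± 10.3 and 469 ± 185 CPM in Notch3 cells and 838 ± 415 and 3416 ± 1036 CPM in Hhip cells. Collagen Col3a1 was at 503 ± 150 CPM in Notch3 cells and 1538 ± 144 CPM in Hhip cells. The secreted factors Igf1 and Wnt5a were at 7.93 ± 10.4 and 0 CPM in Notch3 cells and 344 ± 149 and 235 ± 78.2 CPM in Hhip cells. Fibronectin (Fn1) and the CCN family proteins Ccn2 and Ccn3 were exceptions, at 230 ± 68.9, 1418 ± 231 and 628 ± 86.1 CPM in Notch3 cells and 30.7 ± 20.01, 190 ± 59.4 and 70.7 ± 33.5 CPM in Hhip cells.

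Signalling genes divided as well. The neuropeptide Y receptor Npy1r was at 439 ± 101 CPM in Notch3 cells and 3.91 ± 7.82 CPM in Hhip cells. Of 17 listed nitric oxide and cyclic nucleotide genes, 5 were higher in Notch3 cells, 5 were higher in Hhip cells and 7 overlapped. The nitric oxide receptor subunits Gucy1a1 and Gucy1b1 were at 462 ± 160 and 336 ± 62.2 CPM in Notch3 cells and 69.9 ± 28.4 and 48.7 ± 14.3 CPM in Hhip cells. The phosphodiesterase Pde3a was at 340 ± 25.7 CPM in Notch3 cells and 19.6 ± 17.96 CPM in Hhip cells. The endothelin receptor Ednrb was instead at 74.5 ± 37.9 CPM in Notch3 cells and 273 ± 91.7 CPM in Hhip cells, while Ednra overlapped. The gap junction protein Gja1 was at 17.01 ± 21.3 CPM in Notch3 cells and 450 ± 94.6 CPM in Hhip cells. The hypoxia-responsive factor Epas1 was at 718 ± 164 CPM in Notch3 cells and 82.2 ± 19.0 CPM in Hhip cells. The immediate early gene Nr4a3 was at 124 ± 71.4 CPM in Notch3 cells and 1484 ± 330 CPM in Hhip cells.

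**Figure D3:**
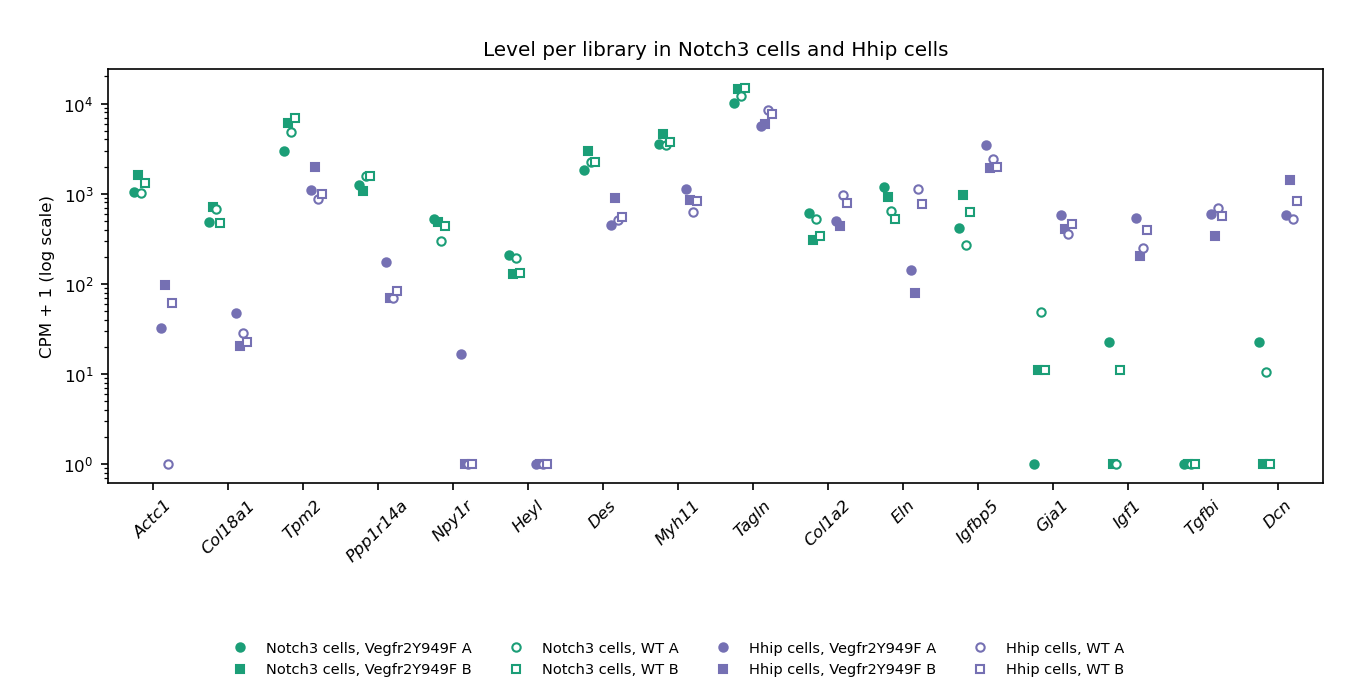
Level of 16 genes (CPM + 1, log scale) in Notch3 cells and Hhip cells of each library, with Vegfr2Y949F libraries filled and WT libraries open. Actc1, Col18a1, Tpm2, Ppp1r14a, Npy1r, Heyl, Des, Myh11 and Tagln are higher in Notch3 cells and Igfbp5, Gja1, Igf1, Tgfbi and Dcn in Hhip cells of all 4 libraries. In Hhip cells the Vegfr2Y949F values of Eln (141 and 77.8 CPM) lie below those of WT (1129 and 773 CPM).

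Across the whole of smooth muscle, no gene passed the test between genotypes. Of 3698 genes tested with edgeR's quasi-likelihood test on the summed counts with Benjamini-Hochberg adjustment, 0 reached an adjusted p of 0.05 (0% of those tested), and the smallest adjusted p was 0.781. At an unadjusted p under 0.05 there were 144 genes (3.89%) by edgeR and 51 of 13500 genes by DESeq2. Both Vegfr2Y949F libraries lay above both WT libraries in 609 genes (16.5%) and below them in 496 (13.4%), and the median log2 fold change was 0.00504. The genes below are the leading ones by unadjusted p and are given as values.

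Among the leading genes lower in Vegfr2Y949F was Ackr3, a scavenging receptor of the chemokine Cxcl12, with 14.3 and 28.6 CPM in Vegfr2Y949F and 103 and 117 CPM in WT (log2 fold change -2.34 ± 0.49, SE). Its UMIs numbered 3 and 7 in Vegfr2Y949F and 19 and 45 in WT, and came from 2 and 4 cells in Vegfr2Y949F and 4 and 10 cells in WT. The largest cell held 47.4% of those of WT A and 44.4% of those of WT B. Ackr3 stood at 229 CPM in cluster 2 and 8.28 CPM in the other clusters, and WT B supplied 23 of the 40 cells of cluster 2. Phlda1 had 100 and 110 CPM in Vegfr2Y949F and 282 and 342 CPM in WT (-1.59 ± 0.36). The Phlda1 UMIs came from 12 and 13 cells in Vegfr2Y949F and 9 and 29 cells in WT. In WT A the largest cell held 48.1% of the 52 UMIs, against 33.3% or less in the other libraries. Within Notch3 cells the Phlda1 UMIs numbered 17 and 0 in Vegfr2Y949F and 1 and 25 in WT, so the A pools had the opposite order. The GTPases Rrad, an inhibitor of calcium channels, and Rasl11a followed. Rrad had 124 and 65.3 CPM in Vegfr2Y949F and 282 and 315 CPM in WT (-1.71 ± 0.39), and Rasl11a had 153 and 135 CPM in Vegfr2Y949F and 402 and 284 CPM in WT (-1.26 ± 0.35). Rasl11a had the same order within Notch3 cells, at 152 and 139 CPM in Vegfr2Y949F and 472 and 558 CPM in WT. The others were the methyltransferase Inmt, Igfbp6, the translational regulator Cpeb2, the growth factor signalling inhibitor Spry2, the protease Pappa2 and Gm12840, with log2 fold changes from -2.05 for Igfbp6 to -1.27 for Pappa2. In the wider set of 315 cells the log2 fold change was -1.79 for Ackr3, -0.49 for Phlda1, -0.66 for Rrad and -0.80 for Rasl11a, and the sign turned for Inmt (1.77) and Gm12840 (0.08).

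Leading genes higher in Vegfr2Y949F included Cdh13, T-cadherin, with 249 and 188 CPM in Vegfr2Y949F and 86.8 and 59.97 CPM in WT (1.58 ± 0.36). Within Notch3 cells Cdh13 had 363 and 368 CPM in Vegfr2Y949F and 154 and 150 CPM in WT. In Vegfr2Y949F B, however, the largest cell held 67.6% of the 37 Cdh13 UMIs of Notch3 cells, against 26.7% or less in the other libraries. Over all smooth muscle the largest cell held 54.3% of the 46 Cdh13 UMIs of Vegfr2Y949F B. D10Wsu102e had 177 and 155 CPM in Vegfr2Y949F and 54.3 and 52.1 CPM in WT (1.60 ± 0.36), and the GTPase Rhoq had 124 and 118 CPM in Vegfr2Y949F and 43.4 and 39.1 CPM in WT (1.53 ± 0.39). The D10Wsu102e UMIs numbered 37 and 38 in Vegfr2Y949F and 10 and 20 in WT. Its largest cell held 43.2 and 31.6% of them in Vegfr2Y949F and 40 and 20% in WT. The Rhoq UMIs numbered 26 and 29 in Vegfr2Y949F and 8 and 15 in WT, and the largest cell held 20% or less in each library. Cspg4, the mural proteoglycan NG2, had 182 and 192 CPM in Vegfr2Y949F and 103 and 73.0 CPM in WT (1.10 ± 0.35). In the wider set the log2 fold change was 0.79 for Cdh13 and 0.18 for Cspg4, and in Notch3 cells that of Cspg4 was 0.62. The others, Rbpms2, Itih4, Fads2, Pdlim4, Agap1 and Trmt112, had log2 fold changes from 1.204 for Fads2 to 1.92 for Itih4. By edgeR's quasi-likelihood test the adjusted p was 0.781 for Ackr3, Phlda1, Rrad, D10Wsu102e and Cdh13 and 1.00 for the other 15.

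**Figure D4:**
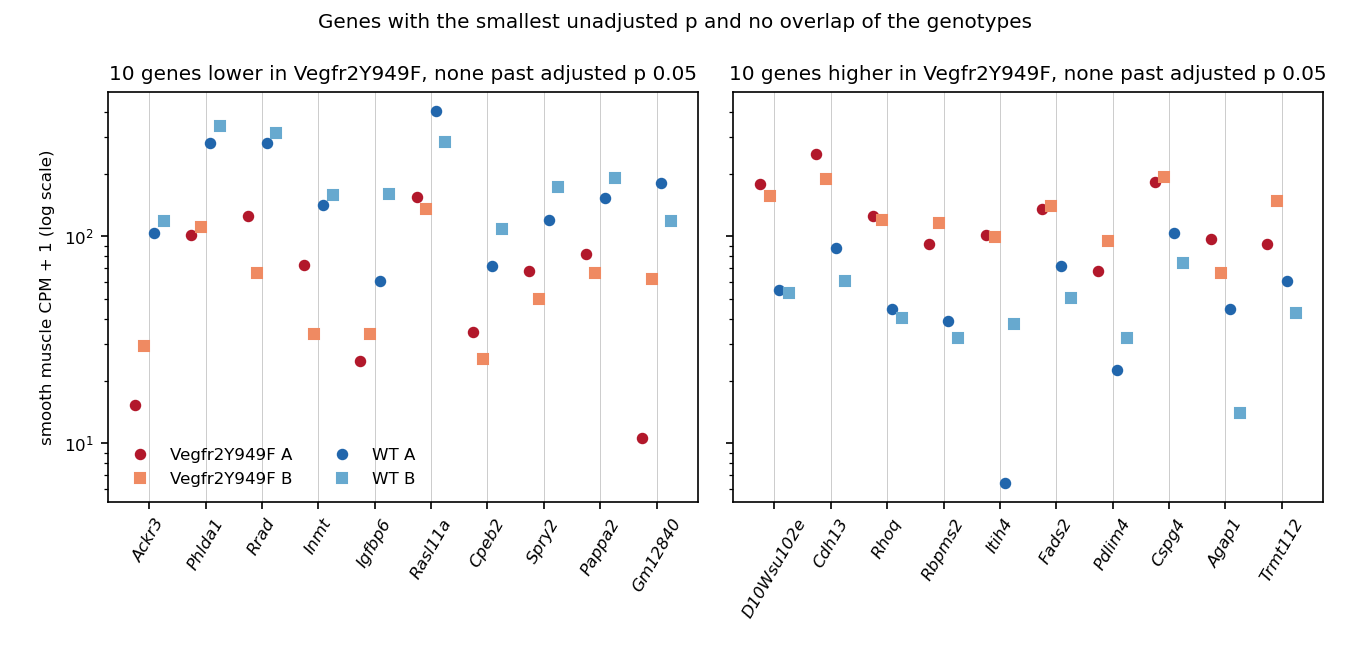
Smooth muscle level (CPM + 1, log scale) in each library of the 10 genes lower and the 10 genes higher in Vegfr2Y949F with the smallest unadjusted p and no overlap of the genotypes. None passed an adjusted p of 0.05.

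Elastin separated the genotypes in Hhip cells. Eln encodes the core of elastic fibres (ENSMUSG00000029675, chr5:134702593-134747323, minus strand, mm10). The split of the fit by Notch3 and Hhip was added after the data had been seen. In Hhip cells Eln stood at 141 and 77.8 CPM in Vegfr2Y949F and 1129 and 773 CPM in WT. It fell in Vegfr2Y949F Hhip cells by 3.15 ± 0.44 on the log2 scale (SE; adjusted p = 0.0208, edgeR's quasi-likelihood test). It was the only gene called of 1436 tested there (0.0696%), and 51 had an unadjusted p under 0.05. In Notch3 cells Eln stood at 1197 and 925 CPM in Vegfr2Y949F and 645 and 528 CPM in WT, and its fold change of 0.87 ± 0.30 on the log2 scale did not pass (adjusted p = 0.999 by edgeR's quasi-likelihood test; 0 of 1872 genes called, 0%). The genotype effect in Hhip cells minus that in Notch3 cells was -4.0 ± 0.42 on the log2 scale (edgeR adjusted p = 0.000316), the only call among 2340 genes (0.0427%), with 108 at an unadjusted p under 0.05. Over all smooth muscle cells the genotypes overlapped, at 937 and 473 CPM in Vegfr2Y949F and 825 and 670 CPM in WT.

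The Eln UMIs of Hhip cells came from 3 or more cells in each library. They lay lower in Vegfr2Y949F in both clusters that hold most of the Hhip cells. A UMI of Eln was present in 3 of 11 and 6 of 17 Hhip cells of Vegfr2Y949F and in 9 of 12 and 22 of 35 Hhip cells of WT, with 9 and 8 UMIs in Vegfr2Y949F and 82 and 178 in WT. The largest single cell held 66.7 and 25% of these UMIs in Vegfr2Y949F and 47.6 and 30.9% in WT. In the Hhip cells of cluster 2, Eln was at 0 and 84.8 CPM in Vegfr2Y949F and 615 and 268 CPM in WT. These were 2 and 9 cells in Vegfr2Y949F and 5 and 20 in WT. The value of 0 thus rests on 2 cells with 17908 UMIs and sets only a weak limit. In the Hhip cells of cluster 3 Eln was at 196 and 62.3 CPM in Vegfr2Y949F and 1546 and 1532 CPM in WT. Among Notch3 cells, 19 of 22 and 8 of 11 had a UMI in Vegfr2Y949F, and 14 of 17 and 12 of 14 in WT. With each library left out in turn, the fold change in Hhip cells ranged from -3.55 to -2.77, with an edgeR adjusted p of at most 0.00101. Each of these fits leaves a genotype with 1 library, whose spread is taken to be that of the other genotype. In pericytes, alveolar fibroblasts and endothelial cells the log2 fold changes of Eln were -0.73, -0.41 and -0.12, and none passed (edgeR adjusted p from 0.998 to 1.00). Endothelial cells had 101 and 70.8 CPM of Eln in Vegfr2Y949F and 102.4 and 76.2 CPM in WT.

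Gene lists are described by counts, beside a median of 0.00504 and 50.4% higher over all genes tested. Both Vegfr2Y949F libraries lay above both WT libraries in 16.5% of all genes tested and below them in 13.4%. Of 38 contractile apparatus genes tested, 34 had a higher value in Vegfr2Y949F, 11 were above WT in both libraries, 0 were below in both, and 0 passed. Their median log2 fold change was 0.28, or 0.24 over the 33 that the rule did not use. The smallest p was that of the fibronectin receptor subunit Itga5, with 95.6 and 163 CPM in Vegfr2Y949F and 65.1 and 67.8 CPM in WT. Notch3 cells, the more contractile side, supplied 65.9 and 41.0% of the summed UMIs in Vegfr2Y949F and 56.4 and 26.2% in WT. Within Notch3 cells the contractile median was 0.01 with 21 of 37 higher, and within Hhip cells 0.30 with 22 of 29 higher. Without WT B the median over all cells was 0.09, without WT A 0.50, and in the wider set of 315 cells 0.09.

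Fibrillar collagen and matrix genes had the opposite values. Of 33 tested, 10 were higher and 23 lower in Vegfr2Y949F, and the median was -0.35. In both libraries 11 of the 33 were below WT, beside 13.4% of all genes tested. Aspn had 1349 and 1024 CPM in Vegfr2Y949F and 1997 and 2738 CPM in WT, and the matricellular protein Spon2 had 47.8 and 32.6 CPM in Vegfr2Y949F and 92.3 and 120 CPM in WT. Fn1 was higher, with 215 and 175 CPM in Vegfr2Y949F and 130 and 80.8 CPM in WT. The median was 0.13 within Notch3 cells, -0.40 within Hhip cells and -0.03 without WT B. Of 13 elastic fibre genes, 10 were lower with a median of -0.26. In Notch3 cells that median was 0.14 with 5 of 8 higher, and in the wider set 0.07 with 8 of 14 higher. Of 23 TGF-beta and BMP genes 18 were lower with a median of -0.31. The receptors Tgfbr2 and Tgfbr3 had 100 and 106, and 225 and 163 CPM in Vegfr2Y949F, and 250 and 138, and 347 and 295 CPM in WT. Their log2 fold changes were -0.87 and -0.75 over all cells and -0.07 and -0.37 in the wider set. The median of the TGF-beta and BMP list in the wider set was -0.13 with 11 of 30 higher. The part of the differing share of Notch3 and Hhip cells in these medians was not tested.

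Of 26 immediate early genes tested, 23 were lower in Vegfr2Y949F with a median of -0.32. In both libraries 10 of the 26 were below WT, beside 13.4% of all genes tested. Klf2 had 220 and 286 CPM in Vegfr2Y949F and 494 and 537 CPM in WT. The log2 fold change of Klf2 was -1.05 over all cells and -0.04 in the wider set. The median of this list was -0.02 within Hhip cells, -0.01 in the wider set, -0.03 without WT B and -0.55 without WT A. Immediate early genes are also known to respond to tissue dissociation, whose part was not tested. Of 22 hypoxia response genes, 5 were higher and 17 lower, with a median of -0.13. Of 21 basement membrane genes, 16 were higher with a median of 0.18, or 14 of 19 with a median of 0.14 without the genes of the rule. With the genes of the rule, the median was -0.00488 without WT B and 0.244 without WT A. It was 0.211 within Notch3 cells, 0.0039 within Hhip cells with 6 of 11 higher, and 0.125 in the wider set. The dystrophin gene Dmd had 469 and 359 CPM in Vegfr2Y949F and 288 and 245 CPM in WT. Of 12 tested genes of SRF and myocardin regulation, 10 were higher with a median of 0.27, and in the wider set 8 of 15 with a median of 0.00432.

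Of 46 vasoactive receptors listed, 8 had enough counts to be tested. Npy1r had 354 and 249 CPM in Vegfr2Y949F and 168 and 130 CPM in WT. Ednrb had 115 and 106 CPM in Vegfr2Y949F and 185 and 209 CPM in WT, and the UDP-sugar receptor P2ry14 had 95.6 and 81.6 CPM in Vegfr2Y949F and 168 and 180 CPM in WT. These 3 had the smallest unadjusted p of the 8, their genotypes did not overlap, and none passed. Of the 8, 1 was above WT in both libraries and 4 below, beside 16.5% and 13.4% of all genes tested. Npy1r was mainly in Notch3 cells, where its log2 fold change was 0.48, against 0.998 over all cells and 0.58 in the wider set. Ednrb was mainly in Hhip cells, where its log2 fold change was -0.65, against -0.87 over all cells and -0.90 in the wider set. The part of each library's make-up in these values was not tested. Of 20 calcium handling and ion channel genes, 12 were higher with a median of 0.03. The ryanodine receptor Ryr2 had 76.5 and 49.0 CPM in Vegfr2Y949F and 27.1 and 13.0 CPM in WT.

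**Figure D5:**
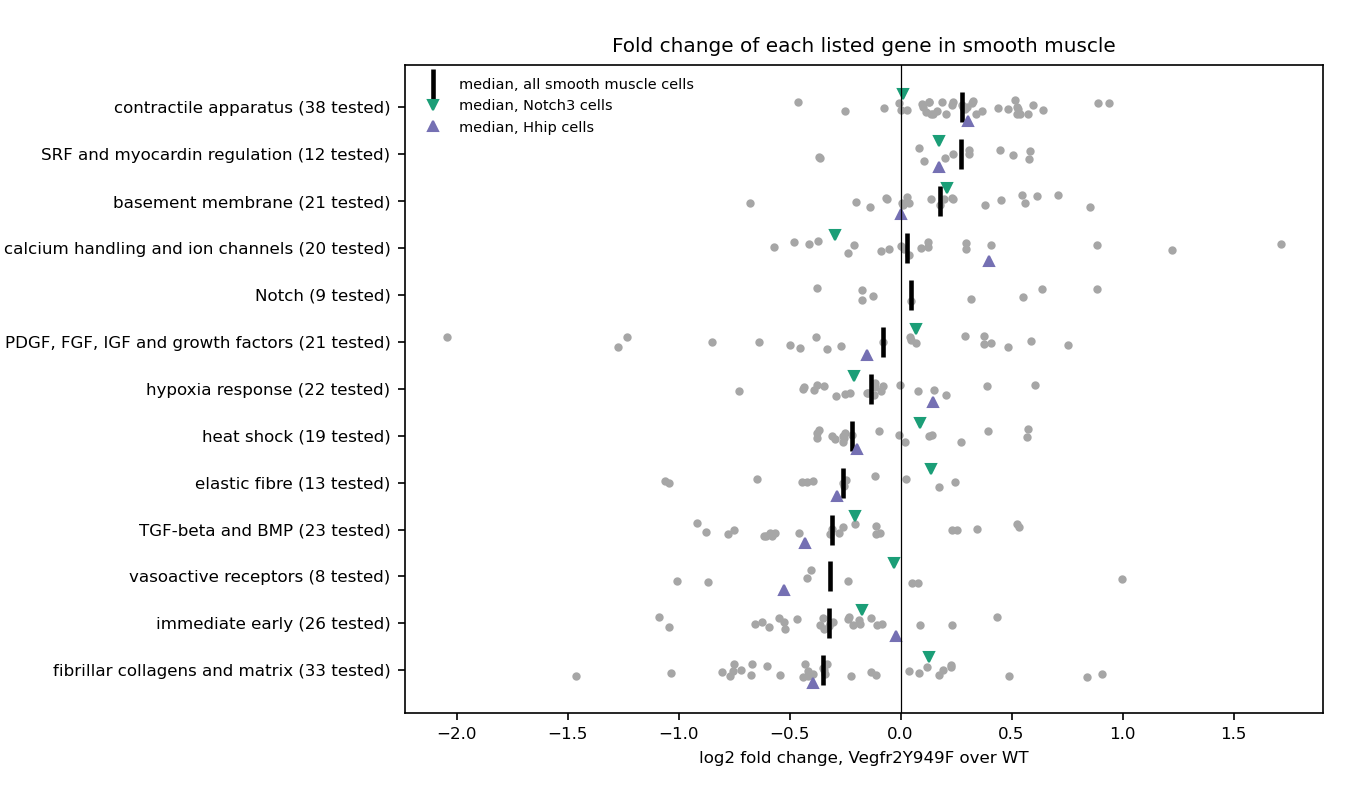
Log2 fold change of Vegfr2Y949F over WT for each tested gene of 13 lists in smooth muscle (grey points), with the list's median over all smooth muscle cells (bar), Notch3 cells and Hhip cells (triangles, drawn where at least 5 genes were tested). The contractile median lies at 0.28 and the matrix median at -0.35 over all cells, and at 0.01 and 0.13 within Notch3 cells.

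Whether the genotype effect differed between smooth muscle and other cell types was tested on each gene. Against pericytes, whose gate set no limit on contractile genes, 0 of 8180 genes were called (0%). The lowest adjusted p there was 0.0861 by edgeR's quasi-likelihood test, for Cxcl2 and Phlda1, and 322 genes had an unadjusted p under 0.05. Against alveolar fibroblasts 15 of 11795 genes were called (0.127%), with 8 effects more positive in smooth muscle and 7 more negative. The rule itself used 4 of these, Myh11, Cnn1, Actg2 and Postn. Against endothelial cells 14 of 13809 were called (0.101%), with 1 more positive and 13 more negative. Without WT B the numbers called were 5 and 0, and without WT A 51 and 1.

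Actc1 was called against fibroblasts (a difference of 4.66 ± 0.60 on the log2 scale, edgeR adjusted p = 1.07e-06) and stayed so without each library in turn. Its fibroblast level was 0.648 and 0.0959 CPM in Vegfr2Y949F and 1.99 and 10.3 CPM in WT, so the call rests on very low fibroblast values, as do those of Tcap and Sncg. Phlda1 was called against fibroblasts (-1.56 ± 0.32, edgeR adjusted p = 0.00895) and endothelial cells (-1.61 ± 0.33, edgeR adjusted p = 0.00266). Fibroblasts had 439 and 549 CPM of Phlda1 in Vegfr2Y949F and 435 and 577 CPM in WT, and endothelial cells had 208 and 352 CPM in Vegfr2Y949F and 208 and 359 CPM in WT. The call against fibroblasts was lost without Vegfr2Y949F A, Vegfr2Y949F B or WT B (edgeR adjusted p from 0.102 to 0.442), where the difference was -1.62 to -1.48. That against endothelial cells was lost without Vegfr2Y949F B, WT A or WT B (edgeR adjusted p from 0.172 to 0.852), where the difference was -1.81 to -1.22. Ackr3 was called against endothelial cells (-2.40 ± 0.48, edgeR adjusted p = 0.00177), which had 136 and 165 CPM in Vegfr2Y949F and 151 and 155 CPM in WT. It was lost without any 1 of the 4 libraries (edgeR adjusted p from 0.0573 to 0.866), with differences from -2.81 to -2.09. The calls of Ccl2, Il6, Ptgs2, Stc1 and Mmp3 were lost without WT B. The sign turned there for Mmp3 (5.49 against fibroblasts and 7.59 against endothelial cells), Ptgs2 (1.66) and Stc1 (0.33). Mmp3 had 0 and 4.08 CPM in Vegfr2Y949F smooth muscle and 0 and 503 CPM in WT smooth muscle, and 1 WT B cell held 65.3% of its 193 UMIs. Ccl2 had 191 and 473 CPM in Vegfr2Y949F and 467 and 1562 CPM in WT, and came from 20 of 55 cells in WT B. Without WT B the adjusted p of Ccl2 was 0.821 against fibroblasts and 1.00 against endothelial cells, and that of Mmp3 was 1.00 against both (edgeR). Without Vegfr2Y949F A that of Ccl2 was 0.691 against fibroblasts and 1.00 against endothelial cells.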

How the data were processed

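UMI counts per gene and cell barcode were deposited for 4 libraries. They were made with Cell Ranger 6.1.1, per the file headers, and the submitters' processing notes name the mm10 build, fastp, UMI-tools and Seurat 4.1.0. Lungs were digested with collagenase and DNase and red cells were lysed, per the labels' protocols. Barcodes with at least 500 genes, 1000 UMIs and under 15% mitochondrial UMIs were kept: 12441 and 10113 in Vegfr2Y949F and 11721 and 10560 in WT.

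The members and lists were chosen with earlier results of these data known. Counts were summed per library over the cells of a type and tested with edgeR 4.0.16 in R 4.3.3 (TMM, filterByExpr, quasi-likelihood, Benjamini-Hochberg over all genes tested, threshold 0.05). Differences between cell types in the genotype effect were interaction terms in a fit with library and cell type. DESeq2 1.42.0 was an alternative. The models were tested on simulated data. Cells were clustered with scanpy 1.11.5 and leidenalg 0.10.2 (1000 variable genes, 15 components, resolution 0.5). No doublets were removed, and removing the highest 8% of doublet scores was an alternative.

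Genes named are, with 0 genes called, the 10 per direction with the smallest unadjusted p among genes with a mean of at least 50 CPM and no overlap of the genotypes, up to 4 per list, the 25 highest in smooth muscle, and the genes of the rule and the markers. Mmp3, Ccl2, Il6, Ptgs2 and Stc1 are named from the tests between cell types, and Eln and the genes that differ between Notch3 and Hhip cells were chosen after their values were seen. Some genes that these rules select are not reported here. The labels do not say what the letters A and B mark. The p-values measure the spread between 4 pools of 2 mice each, and intervals and zero limits cover counting error only. Coordinates of genes are those of mm10 and sequences are those of GRCm38.p6.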

Additional observations from a re-analysis of the deposited data

Results flagged for a closer look

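In Hhip cells Eln was lower in Vegfr2Y949F than in WT while in Notch3 cells its values were higher in Vegfr2Y949F, and the test of that difference gave an adjusted p of 0.000316 (edgeR's quasi-likelihood test, as for the values below).

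The genotype effect in smooth muscle differed from that in alveolar fibroblasts for the genes below, which the rule did not use. It was more positive in smooth muscle for Actc1 (adjusted p = 1.07e-06), Sncg (0.00427), Tcap (0.00561) and S100a4 (0.00895). It was more negative for Mmp3 (1.16e-05), Pdgfra (0.00427), Phlda1 (0.00895), Ccl2 (0.00937), Gm12840 (0.0127) and Igfbp6 (0.0394). Without WT B, Actc1 and Gm12840 were the only ones of these genes still called. The call of Gm12840 was lost without Vegfr2Y949F A and without WT A. Its difference on the log2 scale was -1.54 without Vegfr2Y949F A, -3.84 without Vegfr2Y949F B, -1.58 without WT A and -2.84 without WT B. Pdgfra had 0 and 0 CPM in Vegfr2Y949F smooth muscle and 21.7 and 44.3 CPM in WT smooth muscle.

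The effect differed from that in endothelial cells for 14 genes. It was more negative in smooth muscle for Mmp3 (4.87e-17), Ccl2 (0.000369), Inmt (0.000481), Ackr3 (0.00177), Gm12840 (0.00201), Phlda1 (0.00266), Stc1 (0.0262), Ptgs2 (0.0262), Cxcl2 (0.0262), Il6 (0.0354), Gem (0.0354), Cd44 (0.0451) and Ogn (0.0452). It was more positive for Eif2b5 (0.0310), which had 23.9 and 36.7 CPM in Vegfr2Y949F smooth muscle and 0 and 0 CPM in WT smooth muscle. None of these 14 was called without WT B, where the smallest adjusted p was 0.0815.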

How the results depend on the processing

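The number of smooth muscle genes called was 0 in the edgeR fit and also with RLE size factors, with DESeq2, without likely doublets, with a stricter gate, with stricter cells, without the Ccl2 and Has1 cluster, in Notch3 cells and in the wider set. It was 21 without a low-count filter, 1 (Eln) in Hhip cells and 0 to 13 with 1 library left out. Calls against pericytes numbered 8 without the filter, 13 with the replicate block and 0 to 15 with 1 library left out. Against alveolar fibroblasts they numbered 26 without the filter, 32 with the replicate block and 5 to 51 with 1 library left out. Against endothelial cells they numbered 7 without the filter and 0 to 9 with 1 library left out. The difference in share (Vegfr2Y949F minus WT) of -0.0789 percentage points became 0.0111 for cells with no pericyte or alveolar fibroblast gene, 0.0168 within set A (replicate block), -0.175 within set B, -0.229 in the wider set and -0.207 to 0.0492 with 1 library left out.

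Of 854 fold changes of the 57 named genes and Eln under alternatives, 837 kept their direction and side of the threshold and 13 passed it. The 4 that reversed were Inmt (1.77), Gm12840 (0.0785) and Fbln1 (0.245) in the wider set and Atf3 (0.393) in cells with no pericyte or alveolar fibroblast gene. The named genes were chosen by small p in the same sums, the leading ones also by lack of overlap. Most alternatives reuse those cells, so the number that kept direction is in part set by the choice. Settings in which a gene was filtered out are not counted. With the letter as a replicate block the smooth muscle fit called 0 genes, with a smallest adjusted p of 0.0844 by edgeR. Same-letter libraries deviated together with a correlation of 0.284, and the letters are not stated to pair them. With 31 to 55 cells a library, low genes were not testable. The alternatives on Notch3, Hhip and the wider set, the one without the Ccl2 and Has1 cluster and those on Eln were chosen after seeing the data.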
